A study of Mus musculus with 6 samples.

Results

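The array measured 18193 genes with a probe set of their own, and 10 of them were retinoblastoma pocket proteins or E2F transcription factors: Rb1, Rbl1, Rbl2, E2f1, E2f2, E2f3, E2f4, E2f5, E2f7 and E2f8. They were chosen by name, as the pocket proteins that large T antigen binds and the E2F factors that pocket proteins hold. A probe set was counted where it was annotated to 1 of these symbols and to no other gene, which gave 22 of the 45037 probe sets tested. A gene took its main value from its brightest probe set, by mean log2 signal over the 6 arrays. The cells were bone marrow stromal cells (BMSC) from H-2Kb-tsA58 transgenic mice (Immortomouse), in which the H-2Kb promoter drives a temperature-sensitive form of SV40 large T antigen. The iLarge T BMSC had been injected into male C57BL/6 mice the day after a middle cerebral artery occlusion with reperfusion. They were recovered a fortnight later by collagenase digestion of the infarcted hemisphere and regrown at the temperature that permits the antigen to act (replicates 2, 4 and 6). The naïve Large T BMSC were the injected parent line, kept in culture without passing through a host (replicates 1, 3 and 5). Both groups therefore carried the antigen and were cultured at its permissive temperature. Each array held RNA pooled from 3 hemispheres or from 3 sets of naïve cells, so n = 3 counts pools and not mice. The labels do not say that the naïve pools came from separate donors, so the p-values measure the spread between these pools.

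Pocket proteins restrain entry into the cell cycle by binding E2F factors at the promoters of genes needed for DNA replication. The kinases of cyclin D, cyclin E and cyclin A phosphorylate the pocket proteins and so release E2F, and SV40 large T antigen binds the same pocket and releases E2F without phosphorylation. E2F1, E2F2 and E2F3 are activators, E2F4 and E2F5 act mainly as repressors with the pocket proteins p107 (Rbl1) and p130 (Rbl2), and E2F7 and E2F8 repress without a pocket protein or a DP partner. Several of these genes, Rbl1, E2f1, E2f7 and E2f8 among them, are known to be E2F targets themselves.

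The signals were MAS5 expression values, in arbitrary units scaled to one trimmed mean of 2500 on every array, and array medians ran between 315 and 450.2 in iLarge T and between 308 and 413.6 in naïve Large T BMSC. The 40th percentile of an array, between 182.5 and 299.6, served as the level of near background. The stromal collagens Col1a1 and Col3a1 were bright on every array, but of the 10 stromal markers measured 2 were called higher (Pdgfrb, 13.3-fold, and Cd44, 4.11-fold) and 1 lower (Vcam1, 7.01-fold), and Thy1 ran from 1462 to 41122 in iLarge T and from 749 to 4123 in naïve Large T BMSC. iLarge T replicate 6 stood apart in markers of other cells: the 6 macrophage and microglia markers summed to 5310, 3929 and 32320 in iLarge T replicates 2, 4 and 6, and to 2282, 10730 and 9314 in naïve replicates 1, 3 and 5, and 1 of the 6 was called, higher. The 4 endothelial markers summed to 3402, 4260 and 29824 in iLarge T and to 6455, 9001 and 9290 in naïve Large T BMSC, with 1 called higher and 1 called lower. The defining markers Ptprc (macrophages and other leukocytes; 206, 196 and 4440 in iLarge T, 161, 19 and 60 in naïve) and Pecam1 (endothelium; 63, 580 and 3560 in iLarge T, 62, 22 and 13 in naïve) were near background on every naïve array. Ptprc exceeded it in iLarge T replicate 6 alone, and Pecam1 in iLarge T replicates 4 and 6. The called markers were higher on all 3 iLarge T arrays: Csf1r, the receptor of a macrophage growth factor, read 3716, 1892 and 5673 in iLarge T and 883, 330 and 339 in naïve (adjusted p = 0.0151), and the endothelial cadherin Cdh5 read 2211, 2787 and 23797 in iLarge T and 210, 32 and 27.5 in naïve (adjusted p = 0.0076). Tek, an endothelial receptor, was the marker called lower, with 502, 458 and 1300 in iLarge T and 5703, 8480 and 9080 in naïve. Tek alone thus made up most of each naïve endothelial sum. Cd68, a macrophage marker that was not called, read 317, 1330 and 16962 in iLarge T and 544, 9873 and 8396 in naïve. It made up most of the macrophage sums of naïve replicates 3 and 5. Mesothelial markers moved the other way, with 6 of 8 called lower and a sum of 5198, 4252 and 5309 in iLarge T against 157210, 233190 and 224450 in naïve Large T BMSC. Astrocyte markers (4 measured, 1 called higher) summed to 2429, 4638 and 7494 in iLarge T and 834, 757 and 578 in naïve, neuron markers (4 measured, 1 called higher) to 5650, 2311 and 6039 in iLarge T and 1632, 744 and 487 in naïve, and oligodendrocyte markers (2 measured, none called) to 511, 238 and 1197 in iLarge T and 888, 1255 and 980 in naïve. Over all genes, 3.26% were called lower and 3.54% higher. The part of these cell type markers in the results below was not tested. The members and the named genes without iLarge T replicate 6, and without both it and naïve replicate 1, are described after the gene lists.

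The comparison asked which pocket protein and E2F transcripts differed between stroke-recovered and naïve cells. The arrays hold no series of times and no cells recovered from a host without stroke. Stroke, passage through a host, recovery by collagenase and regrowth therefore cannot be told apart. Rbl1, which encodes p107, was 7.43-fold lower in iLarge T, and E2f8, an atypical repressor, was 5.22-fold lower. E2f7, the other atypical repressor, was 8.48-fold lower by the fitted log2 means but missed the threshold. None of the 10 was called higher. A gene was called where limma's moderated test gave a Benjamini-Hochberg adjusted p under 0.05 over all probe sets and the change was at least 2-fold. The members thus had 2 genes called lower and 0 called higher, where 3.26% of all genes were called lower (593) and 3.54% called higher (644). All iLarge T arrays lay below all naïve arrays for 3 members and above them for 0, against 13.1% (2377) and 14.5% (2645) of all genes. The median log2 fold change of the 10 members was -0.47 with 7 below zero, and that of all genes was 0.06 with 8637 of 18193 below zero. An unadjusted p under 0.05 was reached by 3 of 10 members, all lower (Rbl1, E2f7 and E2f8), and by 4011 of all genes. In bulk cultures, fewer cells of a type and less RNA per cell cannot be told apart.

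**Figure D1:**
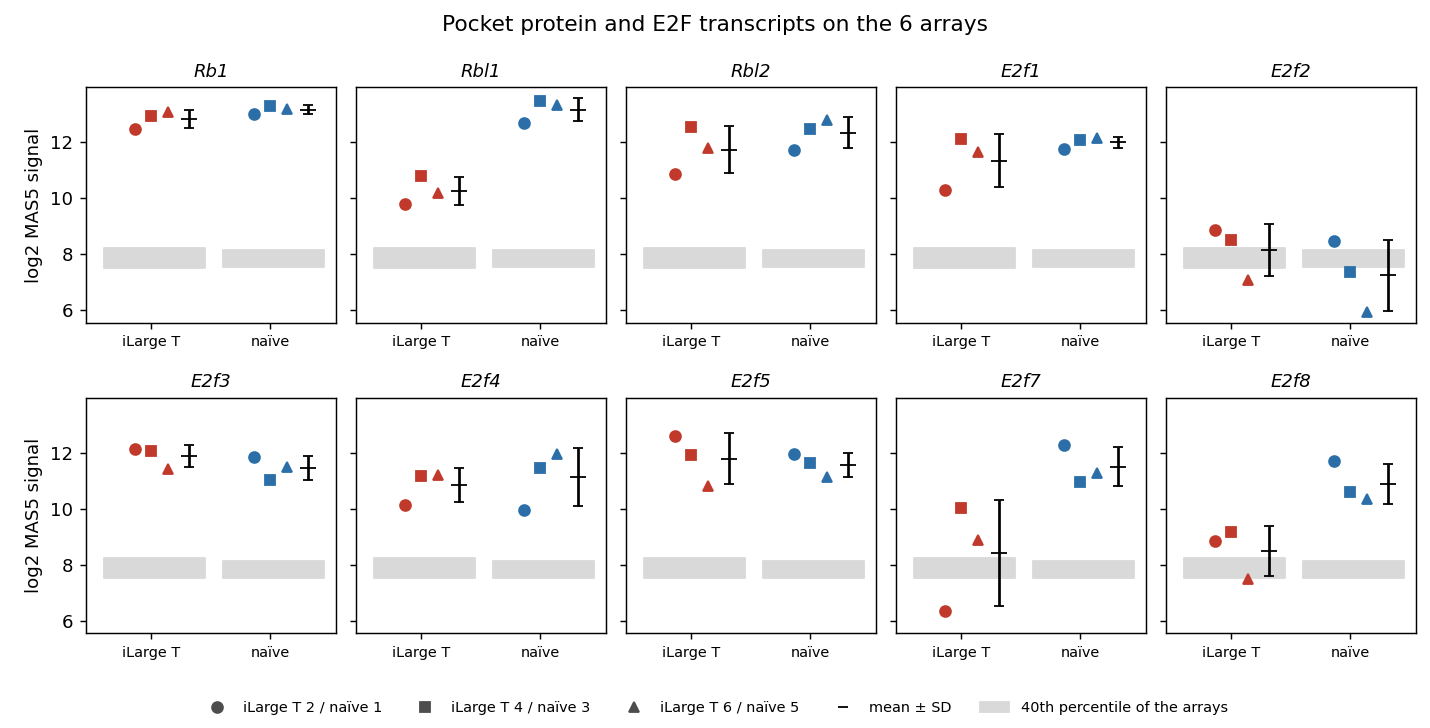
Each panel plots the log2 MAS5 signal of 1 gene's brightest probe set on the 6 arrays, iLarge T at the left and naïve at the right, with the mean and SD beside the points and the range of the arrays' 40th percentiles in grey. Rbl1, E2f7 and E2f8 are the 3 genes whose iLarge T points all lie below the naïve points.

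The promoters of the genes that carried these differences are shown here, with that of E2f3 for contrast, since its transcript was not called. The RefSeq promoter windows (GRCm38.p6, 250 bases before to 50 after a transcription start, 300 in all) gave 9 windows for 7 of the members. Rb1, E2f4 and E2f5 are named only. The E2F element was searched as TTCCCGC, or as the variant TTCGCGC, or with the letters TTGCCGC, or finally as TTGGCGC, together with TTTGAA, the core of the cell cycle homology region (CHR) found at genes of late cell cycle phases, each on both strands. The printed windows lie at chr2:157204485-157204784 on the minus strand (Rbl1), chr7:48881547-48881846 on the minus strand (E2f8), chr10:110745189-110745488 on the plus strand (E2f7) and chr13:29986014-29986313 on the minus strand (E2f3). They read 5′ to 3′ along the gene, and capitals mark the E2F letters.
Rbl1: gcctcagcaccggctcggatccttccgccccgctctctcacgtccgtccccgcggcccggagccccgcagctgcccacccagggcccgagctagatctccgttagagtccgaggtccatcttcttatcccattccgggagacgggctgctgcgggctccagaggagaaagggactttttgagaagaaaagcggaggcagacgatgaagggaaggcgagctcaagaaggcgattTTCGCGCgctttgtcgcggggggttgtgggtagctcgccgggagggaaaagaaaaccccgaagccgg
E2f8: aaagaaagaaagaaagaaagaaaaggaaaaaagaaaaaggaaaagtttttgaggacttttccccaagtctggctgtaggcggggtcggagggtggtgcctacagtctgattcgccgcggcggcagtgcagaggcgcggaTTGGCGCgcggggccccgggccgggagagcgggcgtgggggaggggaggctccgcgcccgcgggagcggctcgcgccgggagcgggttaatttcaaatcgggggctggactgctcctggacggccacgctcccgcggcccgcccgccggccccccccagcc
E2f7: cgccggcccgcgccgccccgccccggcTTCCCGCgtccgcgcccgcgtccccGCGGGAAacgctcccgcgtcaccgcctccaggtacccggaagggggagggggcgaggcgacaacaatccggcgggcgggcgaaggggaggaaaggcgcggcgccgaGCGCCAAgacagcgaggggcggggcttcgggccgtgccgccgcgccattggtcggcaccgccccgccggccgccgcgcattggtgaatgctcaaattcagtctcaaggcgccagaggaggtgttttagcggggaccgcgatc
E2f3: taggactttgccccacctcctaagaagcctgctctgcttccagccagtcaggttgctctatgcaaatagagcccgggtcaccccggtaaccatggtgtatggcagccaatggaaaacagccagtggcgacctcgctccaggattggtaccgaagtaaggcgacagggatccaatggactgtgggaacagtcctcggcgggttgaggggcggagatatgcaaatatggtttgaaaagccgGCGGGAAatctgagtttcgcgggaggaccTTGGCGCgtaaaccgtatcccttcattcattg

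Rbl1 held 1 E2F match, beginning at -17 from the start. E2f8 held 1 at -111, with a CHR match at -20, and E2f7 held 3, at -223, -198 and -92. The E2f3 window shown held 2, at -11 and 19, with a CHR match at -23, and its second window held none. Among the remaining windows, 1 of the 2 of E2f2 had an E2F match at 41 and the other a CHR match at -31, Rbl2 had a CHR match at -201, and the E2f1 window listed had neither. The E2f1 result holds for that window alone (chr2:154569377-154569676), and no other start of E2f1 was searched. In all, 5 of the 9 windows (55.6%) held E2F letters, as did 9.57% of 32851 windows of all genes, and 4 of 9 (44.4%) held CHR letters, as did 17.9% of all. GC content was 64% in the Rbl1 window, 66.7% in that of E2f8 and 75.3% in that of E2f7, and its median was 52.7% over all windows. A match is a description of letters, and no binding was measured. None of these matches overlapped another.

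Among the pocket proteins, only Rbl1 passed the test. Its brightest probe set (1424156_at) read 891, 1786 and 1158 in iLarge T replicates 2, 4 and 6, against 6565, 11291 and 10196 in naïve replicates 1, 3 and 5. Every iLarge T array lay far under the lowest naïve array. Rbl1 averaged 1279 ± 460 in iLarge T and 9351 ± 2474 in naïve Large T BMSC (SD, n = 3 each), a log2 fold change of -2.89 (SE 0.35, 95% interval -3.68 to -2.11, adjusted p = 0.00218). The call was kept without each array in turn, with adjusted p between 0.000363 and 0.0155. It was lost by the methods' t-test, the unpaired test that the study named, run here on log2 values (adjusted p = 0.0908), and by limma without its intensity trend, the term that lets the expected spread vary with signal (adjusted p = 0.063), at the same fold change.

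Rbl1 has 3 other probe sets. The brighter of them (1425166_at) read 13.8, 189 and 361 in iLarge T, against 1849, 1493 and 1782 in naïve Large T BMSC, and its groups did not overlap either (log2 fold change -4.12, SE 1.07, adjusted p = 0.0619). Only 1 of its iLarge T arrays exceeded near background, so the size of that fold change rests on dim values. The remaining probe sets, 1432604_at and 1454293_at, were near background on 4 and 5 of the 6 arrays, and gave 2.12 (adjusted p = 0.546) and -0.90 (adjusted p = 0.763) on the log2 scale. Averaging all 4 probe sets gave Rbl1 a log2 fold change of -1.45 and ended the call (adjusted p = 0.267).

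Rb1 encodes pRB, the founding member of the family and the partner of the activator E2Fs. Its signal was 5612, 7837 and 8605 in iLarge T, against 8174, 10041 and 9318 in naïve Large T BMSC, and the groups overlapped. The log2 fold change was -0.34 (SE 0.26, adjusted p = 0.575), and its 95% interval in this fit, from -0.91 to 0.24, leaves out a 2-fold change in either direction. The SE was wider without the intensity trend (0.35), and without iLarge T replicate 6 the value was -0.46 (SE 0.28). A dim second Rb1 probe set (1444400_at) read near background in every iLarge T pool and gave -2.10 (adjusted p = 0.352). Averaging both probe sets gave -1.22 (adjusted p = 0.165), so a 2-fold fall was left out by the main fit but not by the average.

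Rbl2 encodes p130, the pocket protein of resting cells. It read 1854, 5875 and 3559 in iLarge T, against 3365, 5695 and 7060 in naïve Large T BMSC. The spread within each group exceeded the difference between them, with a log2 fold change of -0.60 (SE 0.44, interval -1.59 to 0.39, adjusted p = 0.559). Its second probe set (1418146_a_at) gave -1.08 (adjusted p = 0.370), also with overlap.

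**Figure D2:**
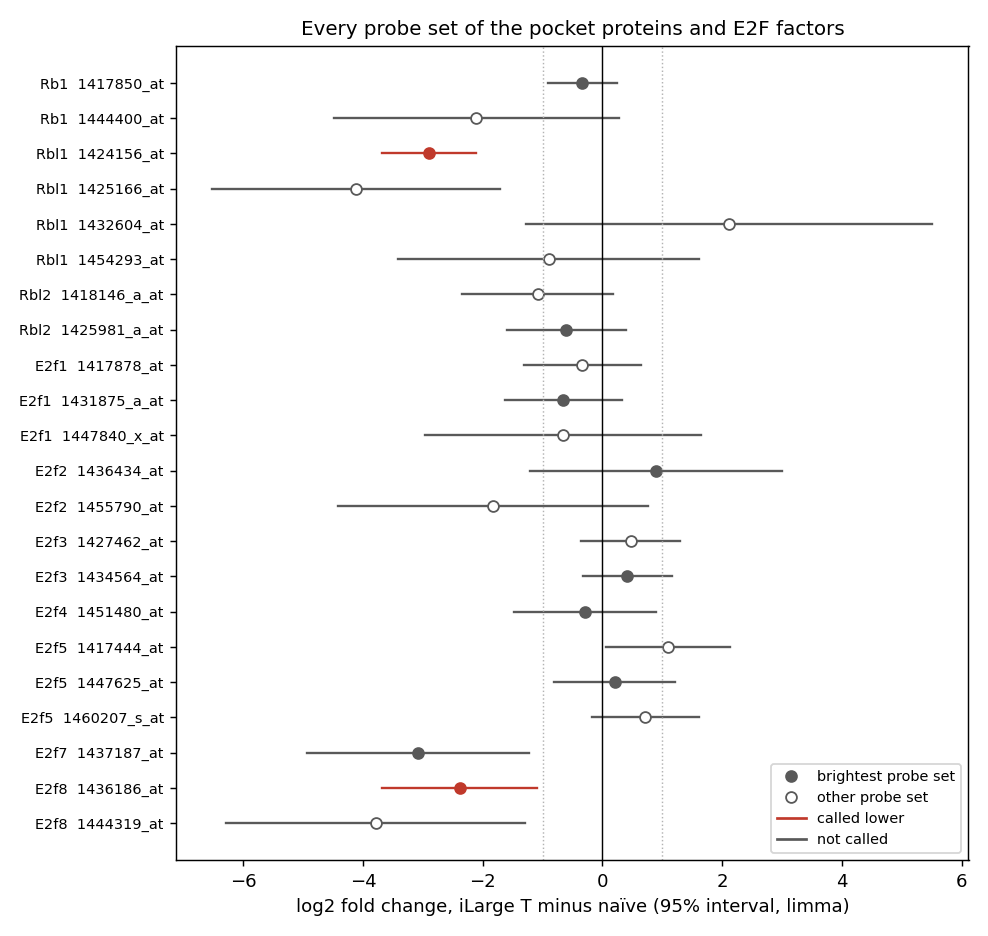
Log2 fold change of iLarge T minus naïve for all 22 probe sets, with 95% intervals from limma, filled points for the brightest probe set of each gene and red for those called lower. Of the 22, 2 were called lower, 0 higher, and 6 were near background on 4 or more arrays.

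The activator E2Fs were not called in either direction. E2f1, which drives entry into S phase and can also drive apoptosis, read 1241, 4377 and 3168 in iLarge T, against 3479, 4292 and 4510 in naïve Large T BMSC. iLarge T replicate 2 was the lowest array, and replicate 4 lay within the naïve range. Its log2 fold change was -0.66 (SE 0.44, interval -1.64 to 0.32, adjusted p = 0.508), and its second bright probe set (1417878_at) gave -0.34 (adjusted p = 0.772). The third (1447840_x_at), of a type whose probes can match other transcripts, was near background on all iLarge T arrays.

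E2f2 was measured close to background, with 462, 363 and 135 in iLarge T, against 355, 162 and 61.1 in naïve Large T BMSC. Of its 6 values, 3 were near background, so its log2 fold change of 0.90 (SE 0.94, interval -1.21 to 3.00, adjusted p = 0.707) has little precision. The other probe set gave the opposite sign, at -1.83 (adjusted p = 0.481).

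E2f3 read 4487, 4274 and 2749 in iLarge T, against 3724, 2067 and 2875 in naïve Large T BMSC. The groups overlapped, and the log2 fold change was 0.42 (SE 0.33, interval -0.33 to 1.16, adjusted p = 0.597). On its second probe set (1427462_at) the iLarge T arrays, at 1145, 1250 and 1262, all lay above the naïve arrays, at 980, 772 and 900. That difference was small, at 0.47 (SE 0.37, adjusted p = 0.593).

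The E2Fs that pair with p107 and p130 did not pass the test either. E2f4 read 1122, 2291 and 2381 in iLarge T, against 1001, 2827 and 3997 in naïve Large T BMSC, with a log2 fold change of -0.30 (SE 0.53, interval -1.48 to 0.89, adjusted p = 0.848). The groups overlapped, and iLarge T replicate 2 and naïve replicate 1 were the lowest of their groups. Leaving out iLarge T replicate 2 turned the sign, to 0.06, as did leaving out naïve replicate 5, to 0.12.

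E2f5 read 6200, 3911 and 1778 in iLarge T, against 3997, 3184 and 2228 in naïve Large T BMSC, a log2 fold change of 0.20 (SE 0.45, interval -0.81 to 1.21, adjusted p = 0.883). The iLarge T arrays covered a wider range than the naïve arrays and enclosed it. Its second probe set (1417444_at) read 3113, 4988 and 4844 in iLarge T, against 4212, 1200 and 1507 in naïve Large T BMSC, where naïve replicate 1 alone overlapped iLarge T (log2 fold change 1.10, interval 0.06 to 2.14, adjusted p = 0.251). The third (1460207_s_at), whose probes can match several transcripts, gave 0.72 (adjusted p = 0.405). The brightest probe set turned sign without iLarge T replicate 2, to -0.21, or without naïve replicate 5, to -0.02.

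The atypical repressors were the E2Fs whose iLarge T arrays all lay below the naïve arrays. E2f8 read 458, 574 and 180 in iLarge T replicates 2, 4 and 6, against 3330, 1567 and 1294 in naïve replicates 1, 3 and 5. The groups did not overlap, although iLarge T replicate 6 lay just under its array's 40th percentile. E2f8 averaged 404 ± 203 in iLarge T and 2064 ± 1105 in naïve Large T BMSC (SD, n = 3 each), with a log2 fold change of -2.38 (SE 0.58, interval -3.68 to -1.09, adjusted p = 0.0478). The call stood at the edge of the threshold. It was lost without any 1 of the 6 arrays while the sign stayed negative, with adjusted p = 0.0977, 0.0784 and 0.119 without iLarge T replicates 2, 4 and 6 and 0.0706, 0.139 and 0.0905 without naïve replicates 1, 3 and 5. It was also lost by the methods' t-test of log2 values (adjusted p = 0.231), and without the intensity trend (adjusted p = 0.167). A dimmer E2f8 probe set (1444319_at) read 17.2, 14.4 and 20.2 in iLarge T, all near background, against 80.0, 307 and 539 in naïve Large T BMSC (adjusted p = 0.0948), and no fold is given for it.

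E2f7 read 80.6, 1049 and 477 in iLarge T, against 5009, 1971 and 2487 in naïve Large T BMSC. The groups did not overlap, and the iLarge T arrays spread widely, with replicate 2 near background. Means were 535 ± 487 in iLarge T and 3156 ± 1625 in naïve Large T BMSC (SD, n = 3 each). The log2 fold change was -3.08 (SE 0.83, interval -4.94 to -1.22, adjusted p = 0.0697). E2f7 passed the threshold under 2 alternatives: when values near background were raised to the 40th percentile of their array (-2.45, adjusted p = 0.0038) and when iLarge T replicate 4, the highest of its group, was left out (-3.89, adjusted p = 0.0468). It did not pass with any other single array left out (adjusted p between 0.0977 and 0.158), nor by the methods' t-test of log2 values (0.345) or limma without its intensity trend (0.245). Without iLarge T replicate 2, the array near background, the log2 fold change was -2.04 (adjusted p = 0.103).

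The 9 spike-in control probe sets paired each iLarge T array with 1 naïve array, replicate 2 with 1, 4 with 3 and 6 with 5, and the change of each member was also taken within these pairs. Rbl1 differed by -2.88, -2.66 and -3.14 on the log2 scale in the 3 pairs, almost alike. E2f8 differed by -2.86, -1.45 and -2.84, and E2f7 by -5.96, -0.91 and -2.38, so E2f7 had the same sign in each pair but a very uneven size. Rb1 was lower in iLarge T in all 3 pairs, by small amounts (-0.54, -0.36 and -0.11). With the pair as a block, the same 2 genes were called, Rbl1 with an adjusted p of 0.000825 and E2f8 with 0.0205.

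**Figure D3:**
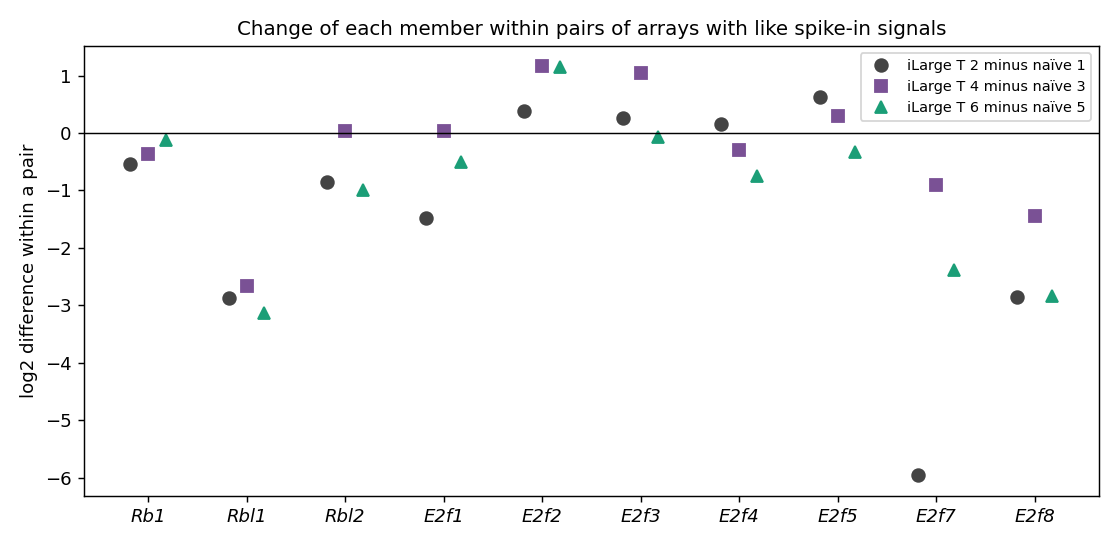
Log2 difference of iLarge T minus naïve for each member within the 3 pairs of arrays that share like spike-in signals, 1 symbol per pair. Rbl1, E2f7 and E2f8 lie below zero in every pair, and Rb1 lies just below it.

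Whether members of a family changed unequally was taken from the difference of their log2 signals on the same array, for 5 comparisons chosen with the values known. With 3 arrays against 3, an exact two-sided permutation test cannot give a p under 0.1. Rbl1 minus Rb1 averaged -2.56 in iLarge T and -0.01 in naïve Large T BMSC, a difference of -2.55 with no overlap (exact permutation p = 0.1, 0.125 adjusted over the 5 comparisons). Rbl1 fell by 2.29 more than Rbl2 on this scale, also without overlap (exact permutation p = 0.1, adjusted 0.125). E2f7 relative to E2f1 differed by -2.43 and E2f8 relative to E2f3 by -2.80, again without overlap (exact permutation p = 0.1 and adjusted 0.125 for each). E2f8 relative to E2f1 differed by -1.73 and did overlap (exact permutation p = 0.3, adjusted 0.3).

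The DP proteins form the dimer with E2F1 to E2F6 that binds DNA. Both DP genes fell in iLarge T. Tfdp1 (DP1) read 11094, 12073 and 11075 in iLarge T, against 30356, 25318 and 27752 in naïve Large T BMSC, a narrow spread on either side (log2 fold change -1.28, SE 0.22, adjusted p = 0.00968). Tfdp2 (DP2) read 2347, 2618 and 1789 in iLarge T, against 5557, 13383 and 13509 in naïve Large T BMSC (-2.17, SE 0.38, adjusted p = 0.0109). Leaving out naïve replicate 5 ended the call of Tfdp1 (adjusted p = 0.0512), and leaving out iLarge T replicate 6 (0.0545) or naïve replicate 3 (0.0583) that of Tfdp2. E2f6, a repressor that works without pocket proteins, read 6010, 8562 and 6747 in iLarge T, against 4933, 4252 and 4334 in naïve Large T BMSC, all higher, but was not called (0.64, adjusted p = 0.216).

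Of the 9 cyclins and kinases that phosphorylate pocket proteins, 3 were called lower and 1 higher, with a median log2 fold change of 0.36. Over all genes, 3.26% were called lower and 3.54% higher, and the counts of the lists below stand beside the same shares. Ccna2, Ccne1 and Ccne2 are also on the list of E2F targets. Ccnd1 (cyclin D1) rose, with 76312, 60712 and 39915 in iLarge T, against 16834, 3201 and 3900 in naïve Large T BMSC (3.26, SE 0.55, adjusted p = 0.00998). Its call was lost without iLarge T replicate 2 (adjusted p = 0.0595) or 4 (0.0525). Ccnd2 (cyclin D2) was as bright in naïve replicate 1 as in iLarge T, with 104100, 68912 and 87617 in iLarge T, against 92139, 3201 and 4648 in naïve Large T BMSC, and was not called (adjusted p = 0.149). The kinase Cdk2, the partner of cyclins E and A, fell, and read 1845, 2580 and 2235 in iLarge T, against 7780, 9328 and 9117 in naïve Large T BMSC (-1.99, adjusted p = 0.00321). That call was lost when its probe sets were averaged (-1.62, adjusted p = 0.313) and on its most variable one (-1.255, adjusted p = 0.742). It was also lost by the methods' t-test of log2 values (adjusted p = 0.0606) and without the intensity trend (adjusted p = 0.074). Ccna2 (cyclin A2) fell by 2.38 on the log2 scale (adjusted p = 0.0168, 0.0556 without iLarge T replicate 6) and Ccne2 (cyclin E2) by 1.86 (adjusted p = 0.029, lost without iLarge T replicate 2, 4 or 6 or naïve replicate 3, at 0.0838, 0.0548, 0.101 and 0.0949). Ccne1 did not pass, at 0.36 (adjusted p = 0.776), on a probe set of the type that can match other transcripts. Ccnd3 was higher (1.27, adjusted p = 0.0712) and Cdk4 lower (-0.90, adjusted p = 0.124), each without overlap, and neither was called. Without naïve replicate 1 the list had 4 genes lower and 3 higher, without iLarge T replicate 4 it had 2 lower and 0 higher, and without iLarge T replicate 6 it had 1 of each. Over all probe sets, the calls lower and higher were 2140 and 2342, 583 and 422, and 580 and 490 under the same omissions, against 1024 and 1113 with all arrays.

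CDK inhibitors block those kinases and so keep pocket proteins bound to E2F. Of the 7 measured, 3 were called lower and 1 higher (median -0.96), against 3.26% and 3.54% of all genes. Cdkn1a (p21), a target of p53, read 53342, 46041 and 61865 in iLarge T, against 24622, 5220 and 4614 in naïve Large T BMSC (2.67, adjusted p = 0.0228). No iLarge T array reached as low as the highest naïve array, and the call was lost on leaving out iLarge T replicate 2 (0.0908), 4 (0.08) or 6 (0.0991) or naïve replicate 3 (0.091) or 5 (0.0747). Cdkn1b (p27) fell by 2.75 on the log2 scale, with 3978, 2628 and 2659 in iLarge T, against 11306, 25239 and 29398 in naïve Large T BMSC (adjusted p = 0.00369). The INK4 inhibitors Cdkn2c (p18) and Cdkn2d (p19), which act on the kinases of cyclin D, also fell. Cdkn2c read 2275, 3840 and 2764 in iLarge T, against 14094, 20263 and 19378 in naïve Large T BMSC (-2.61, adjusted p = 0.00129), and Cdkn2d changed by -1.65 (adjusted p = 0.0124, lost at 0.0608 without iLarge T replicate 4 and at 0.0512 without naïve replicate 3). Cdkn2a and Cdkn2b, from the INK4 locus that restrains growth in culture, gave -0.96 (adjusted p = 0.348) and 0.02 (adjusted p = 0.989).

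Chromatin cofactors that pocket proteins recruit were measured for 10 of the 12 listed, and the others were not analysed here. Only Dnmt1, the maintenance DNA methyltransferase and itself on the list of E2F targets, was called. It read 1248, 3878 and 3138 in iLarge T, against 9835, 10996 and 10927 in naïve Large T BMSC (-2.09, adjusted p = 0.0165, lost without naïve replicate 3 at 0.0692 or 5 at 0.0582). The other cofactors lay between -0.66 (Hdac1, adjusted p = 0.148) and 0.22 (Arid4a, adjusted p = 0.803), and the list's median was -0.32. The MuvB complex joins p130 or p107 with E2F4 in the repressor DREAM, and later joins B-Myb and FoxM1 to activate mitotic genes. Of its 7 genes, 2 were called, both lower, and the median was -1.13. Lin54, the subunit that binds DNA at the CHR, read 1713, 2373 and 2828 in iLarge T, against 4268, 8686 and 7496 in naïve Large T BMSC (-1.53, adjusted p = 0.0347). Rbbp4, shared with other chromatin complexes and read by a probe set that can match other transcripts, changed by -1.13 (adjusted p = 0.0291). Neither was called without iLarge T replicate 4 (adjusted p = 0.115 and 0.119 for Lin54 and Rbbp4), iLarge T replicate 6 (0.0682 and 0.118), naïve replicate 3 (0.171 and 0.129) or naïve replicate 5 (0.14 and 0.0906), and Lin54 was lost without iLarge T replicate 2 as well (0.116). Mybl2 (B-Myb), also on the list of E2F targets, read 393, 49.4 and 236 in iLarge T, against 1435, 949 and 1062 in naïve Large T BMSC. Its groups did not overlap, and it missed the threshold (-2.77, adjusted p = 0.0863). Of 6 measured cellular partners of large T antigen other than pocket proteins, 1 was called: Bub1, a kinase of the spindle checkpoint, changed by -2.71 (adjusted p = 0.0189, lost without iLarge T replicate 2 at 0.0673 or 6 at 0.0723, or naïve replicate 3 at 0.0508). Hspa8, the chaperone that large T uses to open pocket protein complexes, gave 0.18 (adjusted p = 0.851), and Cul7 0.00 (adjusted p = 0.998).

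E2F target genes of the G1/S transition were widely lower in iLarge T. Of 52 measured of 56 listed, 43 were called lower and 0 higher, and 50 had a log2 fold change below zero. An unadjusted p under 0.05 was reached by 47, and 48 had no overlap between the groups. The median log2 fold change was -2.73, against 0.06 over all genes. Of all 18193 genes, 3.26% were called lower, 13.1% were lower without overlap, and 4011 had an unadjusted p under 0.05. The list was chosen with earlier results of these data known and is not independent evidence of its direction. The largest changes by the rule for named genes were those of Cdca7, Chaf1b, Pole and Ung. Cdca7, a chromatin factor of S phase, read 86.6, 699 and 74.6 in iLarge T, against 1964, 6367 and 6070 in naïve Large T BMSC (-4.68, adjusted p = 0.0135). Chaf1b, a subunit of the histone chaperone that follows the replication fork, read 366, 1704 and 711 in iLarge T, against 7823, 17834 and 16126 in naïve Large T BMSC (-4.10, adjusted p = 0.00317). Pole, the leading strand polymerase, changed by -4.07 (adjusted p = 0.0138), and Ung, a uracil DNA glycosylase, by -3.94 (adjusted p = 0.00556). Near background were iLarge T replicates 2 and 6 for Cdca7 and replicate 2 for Pole and Ung, so these sizes rest partly on dim values. With values near background raised to the 40th percentile of their array, Cdca7 changed by -3.65 and Pole by -3.44, against -4.10 for Chaf1b. Cdca7 lost its call without iLarge T replicate 2 (0.0651) or 6 (0.0587) or naïve replicate 3 (0.0706) or 5 (0.0597), and Pole without iLarge T replicate 6 (0.0528) or naïve replicate 3 (0.0629). iLarge T replicate 4 was the highest of its group for 45 of the 52 genes, as it was for 5 of the 10 members (Rbl1, Rbl2, E2f1, E2f7 and E2f8). The exceptions to the direction were Ccne1 (0.36) and Rrm2, a ribonucleotide reductase subunit (0.20, adjusted p = 0.915), both on probe sets that can match other transcripts, and Cdc25a was close to zero (-0.05, adjusted p = 0.977). Without each array in turn the count lower ran from 35 to 43. It was 3 by the methods' t-test of log2 values and 8 by limma without its intensity trend, settings under which the calls lower over all 45037 probe sets were 13 and 109, against 1024. Among promoter windows of the target genes, 62.7% held the E2F letters (32 of 51 windows), as did 5 of the 9 windows of the pocket protein and E2F genes.

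Genes of G2 and mitosis that DREAM and FoxM1 regulate had 20 of 21 called lower and 0 higher, with no overlap for any of the 21 and a median of -2.56. Over all genes, 3.26% were called lower, 13.1% were lower without overlap, and the median was 0.06. The list was also chosen with earlier results of these data known. Ccnb2 (cyclin B2) read 933, 2438 and 1616 in iLarge T, against 18523, 18636 and 15986 in naïve Large T BMSC (-3.52, adjusted p = 0.000969). Nusap1 (a spindle protein), Mki67 (the proliferation marker Ki-67) and Aurkb (the kinase of the chromosomal passenger complex) changed by -3.32 (adjusted p = 0.000852), -2.99 (adjusted p = 0.00527) and -2.98 (adjusted p = 0.00405). The list had 13 called lower without iLarge T replicate 2 or 6 and 14 without naïve replicate 3. CHR letters stood in 80% of the promoter windows of these genes (16 of 20) and E2F letters in 15%. Naïve replicate 1 was the highest of its group for 20 of the 21 genes. Among the 10 members it was the highest naïve array for 5 (E2f2, E2f3, E2f5, E2f7 and E2f8) and the lowest for the other 5.

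The apoptotic genes that E2F1 can induce had 1 gene called higher and 1 called lower, of 6 measured of 8 listed. The log2 fold change was below zero for 5 of the 6, with a median of -0.81, and 3 had an unadjusted p under 0.05 in limma. Pmaip1 (Noxa), a BH3 protein that p53 also induces, rose, with 27874, 24510 and 36200 in iLarge T, against 4620, 2426 and 3743 in naïve Large T BMSC (3.07, SE 0.30, adjusted p = 0.000852). Map3k5, a stress kinase, changed by -2.13 (adjusted p = 0.0453, lost without iLarge T replicate 2, 4 or 6 or naïve replicate 3 or 5, at 0.113, 0.14, 0.0799, 0.233 and 0.219). Bbc3 (Puma) and Apaf1, further mediators of E2F1-driven death, gave -0.37 (adjusted p = 0.755) and -0.08 (adjusted p = 0.947). Bcl2l11 gave -1.25 (adjusted p = 0.139) and Trp73 -1.28 (adjusted p = 0.63). Trp73 was near background on every iLarge T array, and with those values raised to the 40th percentile the list's median was -0.23.

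**Figure D4:**
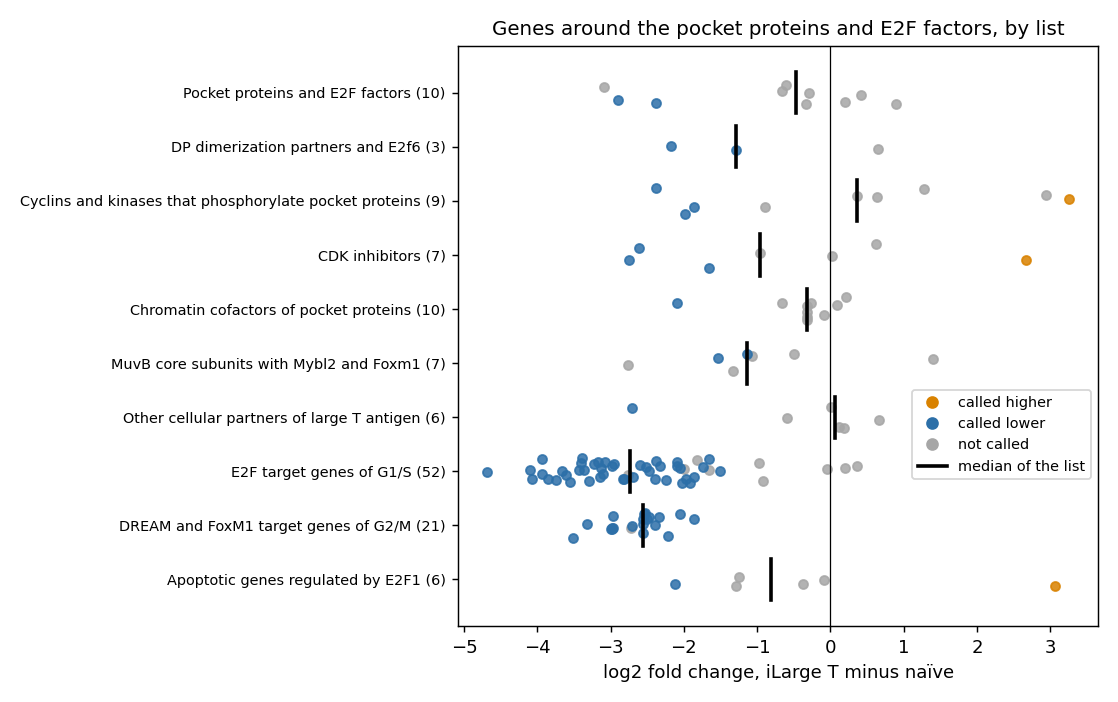
Log2 fold change of iLarge T minus naïve for every measured gene of each list (number of genes in brackets), with blue for called lower, orange for called higher, grey for not called and a bar at the list's median. The E2F target genes and the genes of G2 and mitosis lie almost wholly below zero (medians -2.73 and -2.56), while the pocket proteins and E2F factors spread around a median of -0.47.

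Among the members Rbl1 had the largest moderated t. Over the 6 arrays, the genes most like it by Pearson's correlation of log2 signal were Usp37 (r = 0.999), Cdkn2c (0.999), Msh6 (0.998) and Nek3 (0.998), out of 9089 genes at or above the median signal. Of those genes, 849 (9.34%) had an r of at least 0.9. The 6 points fall into the same groups for every gene that differs between iLarge T and naïve cells, so these values describe a shared split. Msh6, a mismatch repair gene on the E2F target list, read 1515, 2655 and 2049 in iLarge T, against 8104, 11211 and 11581 in naïve Large T BMSC.

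Without iLarge T replicate 6 alone, every member kept the sign of its log2 fold change. The values were -0.46 for Rb1, -2.85 for Rbl1, -0.64 for Rbl2, -0.80 for E2f1, 1.43 for E2f2, 0.64 for E2f3, -0.49 for E2f4, 0.69 for E2f5, -3.32 for E2f7 and -1.88 for E2f8, and only Rbl1 was called (adjusted p = 0.0146). Among the named genes of the lists whose calls stood without each single array, Cdk2, Cdkn1b, Cdkn2c, Chaf1b, Ung, Ccnb2, Nusap1, Mki67, Aurkb and Pmaip1, the omission of this array gave adjusted p between 0.00755 (Nusap1) and 0.0308 (Ung). The methods' t-test of log2 values ended these calls too, as for Cdk2 (adjusted p = 0.0606), Nusap1 (0.0728), Chaf1b (0.133) and Mki67 (0.141). In limma without the intensity trend only Ccnb2, Nusap1 and Pmaip1 kept theirs (adjusted p = 0.0486, 0.0454 and 0.0487).

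Leaving out both arrays, iLarge T replicate 6 and naïve replicate 1, was an alternative chosen after seeing the data. Rbl1 was still called (-3.09, adjusted p = 0.00154), E2f8 was not (-1.47, adjusted p = 0.0653), and E2f7 changed by -2.93 (adjusted p = 0.122). Of the E2F targets, 42 were then called lower, and 1 was called higher, Rrm2.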

How the data were processed

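Total RNA of 6 pools was hybridised to Affymetrix Mouse Genome 430 2.0 arrays by the authors, who derived MAS5 signals (named in the submitters' processing notes). The deposited values are intensities on a linear scale, scaled to a trimmed mean of 2500 on each array, with no detection calls used here. The authors' lists of changed genes hold fold changes and p-values and were not used. Of 45101 probe sets, 64 controls were left out and 45037 tested, of which 34945 had 1 gene symbol, 932 several and 9160 none in the platform annotation (34741 of the first were found in RefSeq by ID, and 0 symbols changed).

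The log2 of the deposited intensities was computed and tested with limma 3.58.1 (lmFit and eBayes with an intensity trend) in R 4.3.3, with Benjamini-Hochberg adjustment over all 45037 probe sets, and tested on simulated data. Calls needed an adjusted p under 0.05 and a 2-fold change, the thresholds of the study's methods, and the unpaired t-test of those methods (the methods' t-test) was an alternative. A gene's main value was its brightest single-symbol probe set. Where a fold change is given in words, it is the ratio from the fitted log2 means. A signal under the 40th percentile of its array was called near background. Other alternatives were no intensity trend, quantile normalization, dim probe sets left out, a floor at the 40th percentile, log2(signal + 16), the mean or the most variable probe set of a gene, no fold threshold, the spike-in pair as a block, and each array left out. Leaving out 2 arrays together was added after seeing the data. Permutation tests were run in Python 3.11.15. The number of arrays, 3 per group, limits the precision.

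The members and gene lists were chosen with earlier results of these data known. Named genes were every member, up to 4 called genes per list with the largest change, no overlap and a brighter group at or above the array median, and the 4 genes most correlated with the member of largest moderated t. Other genes named beside them were chosen after their values were seen. Listed genes that no single-symbol probe set measured were not analysed here. Promoter windows came from RefSeq (GRCm38.p6).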

Additional observations from a re-analysis of the deposited data

How the results depend on the processing

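By the labels' replicate numbers no paired analysis was possible because the groups share none (2, 4 and 6 against 1, 3 and 5), and arrays were paired instead by their spike-in signals. With that pair as a block, the counts were 2 members and 45 E2F target genes lower, so it changed no call of a member. The count of members called lower, 2, was 0 by the methods' t-test (of log2 values and of linear signals), 0 in limma without the intensity trend, 0 where the most variable probe set stood for a gene, 1 where a gene's probe sets were averaged and 1 with iLarge T replicate 6 and naïve replicate 1 both left out; leaving out 1 array gave 1 to 2. The E2F target genes called lower, 43, were 3 and 4 with the methods' t-test on log2 and linear values and 8 without the trend, and leaving out 1 array gave 35 to 43; leaving out both arrays gave 1 called higher. Calls also dropped over all 45037 probe sets in these settings, where 1024 were lower with the trend, 13 and 67 by the t-tests and 109 without the trend, so the drop ran over the whole array. The t-tests run here called far fewer lower than the paper reports for its own unpaired t-test. They did not reproduce its result, and the reason was not tested. E2f2 turned sign when its probe sets were averaged (-0.47) and on its most variable one (-1.83). Among list genes, Cdk2, Cdkn1a, Bub1, Cdca7 and Map3k5 lost their calls when probe sets were averaged (adjusted p = 0.313, 0.0989, 0.0738, 0.155 and 0.0614). On the most variable probe set, genes that lost their calls included Cdkn1b, Nusap1, Lin54 and Dnmt1 (adjusted p = 0.274, 0.231, 0.419 and 0.0818). E2f4 turned without iLarge T replicate 2 (0.06) and naïve replicate 5 (0.12), in a range from -0.88 to 0.12 over single arrays left out, and E2f5 without the same arrays (-0.21 and -0.02), in a range from -0.21 to 0.69. Rbl1 and E2f8 kept their direction under every alternative run, and no member was called higher under any. The floor at the 40th percentile raised the median of all probe sets to 0.17, and leaving out iLarge T replicate 6 raised it to 0.11. Among the members, signal near background limits E2f2, E2f7 and E2f8 most.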

Other observations

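The naïve arrays differed among themselves in these genes. Naïve replicate 1 read 5009 for E2f7, against 1971 and 2487 in naïve replicates 3 and 5, and 3330 for E2f8, against 1567 and 1294. It was also the highest naïve array for 20 of 21 genes of G2 and mitosis (Mki67 at 17732, against 8239 and 7843). In the same array Rbl1 was the lowest of the naïve values, at 6565, against 11291 and 10196, and so was Mcm2, a subunit of the replicative helicase, at 16151, against 34749 and 36167. Naïve replicate 1 was the highest naïve array for 28 of the 52 E2F target genes and the lowest for 24. Among the iLarge T arrays, replicate 4 was the highest for 45 of those 52 genes and for 20 of the 21 genes of G2 and mitosis. These values were not tested, since they compare single arrays.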
